A study of Mus musculus with 28 samples.

Results

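The genes described here code for proteins that act back on bone morphogenetic protein (BMP) signalling or lie downstream of it. They were Bambi, Pmepa1, Ski, Skil, Smurf1, Smurf2, Msx1, Msx2 and Atoh8. They were taken by gene name, and all 9 were found among the 29413 genes of the BMP table and among the 55416 genes of each of the other tables. RNA was sequenced from 28 samples. The epithelial samples were small-intestinal organoids, which are gel cultures of intestinal crypt cells, from wild-type C57BL/6 mice. Crypts were first kept in ENR medium, which is named for EGF, Noggin and R-spondin and to which no Bmp or Tgfb had been added. Recombinant ligand was then given at 500 ng/ml for 24 h. Whether Noggin, a secreted BMP antagonist, was present during treatment is not given in the sources used here. The BMP table held untreated organoids (n = 4), BMP2 (n = 4) and BMP3, BMP4, BMP5 and BMP7 (n = 3 each). Recombinant Tgfb at the same dose and time (n = 3) had untreated organoids of its own (n = 3) in another table. The third table held 2 samples of duodenal mesenchymal cells from PdgfraH2BeGFP mice, 1 fresh and 1 immortalised with the HPV16 E6 gene and sorted on eGFP. Each of these 2 was a single sample, and the immortalised line was a transduced, puromycin-selected culture.

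BMP and Tgfb ligands bind pairs of serine/threonine kinase receptors, which phosphorylate SMAD proteins. BMP receptors act mainly through SMAD1, SMAD5 and SMAD9, and Tgfb receptors act mainly through SMAD2 and SMAD3. Activated SMADs enter the nucleus with SMAD4 and switch on target genes, among them genes whose products weaken the same signal. In the intestine, BMP signalling is strongest towards the villus tip and is held low in the crypt by secreted antagonists. The 9 genes act at several levels. BAMBI is a pseudoreceptor without a kinase domain, PMEPA1 is a membrane protein that binds receptor SMADs, and SMURF1 and SMURF2 are ubiquitin ligases that mark SMADs and receptors for degradation. SKI and its relative SKIL, also called SnoN, are nuclear co-repressors that bind SMADs. MSX1 and MSX2 are homeobox transcription factors, and ATOH8 is a basic helix-loop-helix transcription factor.

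The BMP table gave normalized counts, each being a gene's read count over its sample's size factor, and 1 read was worth between 0.826 and 1.28 normalized counts. Depth was 21358620 to 24784834 recovered reads per sample. A normalized count does not take gene length into account, so levels in that table were compared between samples and not between genes. The TGFb and mesenchymal tables gave TPM, transcripts scaled per length to a common total, with unknown depth. All 7 epithelial markers were detected in every organoid group, with summed levels of 98140 to 109310 normalized counts in untreated organoids, 585420 to 751040 with BMP2, 244430 to 350100 with BMP4, 176880 to 294440 with BMP5 and 218080 to 310570 with BMP7. The summed level of the 8 mesenchymal markers present in that table was 139.7 to 227.9 normalized counts in untreated organoids, 80.6 to 118 with BMP2 and 34.2 to 51.4 with BMP4, where Col1a1, Col1a2, Col3a1, Pdgfra and Twist1 were at or under 3 reads in every sample. With BMP5 it was 155 to 220 and with BMP7 101 to 172 normalized counts. The sum of 5 immune markers, of which Cd79a was at or under 3 reads in every sample of this table, was 30.2 to 49.8 normalized counts in untreated organoids, 74.1 to 169 with BMP2, 27.6 to 62.8 with BMP4, 61.2 to 84.3 with BMP5 and 49.1 to 79.0 with BMP7. The part of these marker levels in the results below was not tested. Bringing all samples to the same total in place of the authors' scaling moved the median log2 change of all genes to -0.48 for BMP2, -0.35 for BMP4 and -0.12 for BMP7 against untreated organoids. It moved that median to -0.38 for BMP4 against BMP5 and to -0.32 for BMP4 against BMP7. As deposited, these 5 medians lay between -0.05 and 0.04. In bulk RNA, fewer cells of a type and less RNA per cell cannot be told apart. The labels do not say whether replicates came from separate animals or cultures, so p-values measure only the spread between these samples.

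Pmepa1 (ENSMUSG00000038400), the SMAD-binding membrane inhibitor, was much lower with BMP4 than with BMP2, BMP5 or BMP7. In untreated organoids it stood at 638, 535, 672 and 730 normalized counts, given here and below in order of replicate number. With BMP2 it stood at 15000, 15000, 12700 and 14600 normalized counts. With BMP5 the 3 samples were at 4870, 7490 and 8050 normalized counts, and with BMP7 at 9980, 6250 and 8250. With BMP4 they were at 1030, 953 and 1870 normalized counts. Every BMP2 sample lay above every BMP5 and BMP7 sample, every BMP4 sample lay between those and the untreated ones, and the BMP5 and BMP7 samples overlapped. BMP3 samples, at 476 to 739 normalized counts, overlapped the untreated ones. Mean levels were 644 ± 81.8 in untreated organoids and 14325 ± 1099.6 with BMP2 (SD, n = 4 each), a 22.3-fold difference. The log2 change against untreated organoids, on the log2(value + 1) scale with its SE, was 4.48 ± 0.21 for BMP2 (adjusted p = 1.30e-12), 3.38 ± 0.22 for BMP5 (adjusted p = 2.19e-08) and 3.64 ± 0.22 for BMP7 (adjusted p = 5.22e-09). For BMP4 it was 0.94 ± 0.22 (adjusted p = 0.00118). These and all adjusted p-values below are two-sided, from limma's moderated test with Benjamini-Hochberg adjustment over all genes tested, called at 0.05. With all samples at the same total, the BMP4 change in Pmepa1 was 0.54 (adjusted p = 0.0313).

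**Figure D1:**
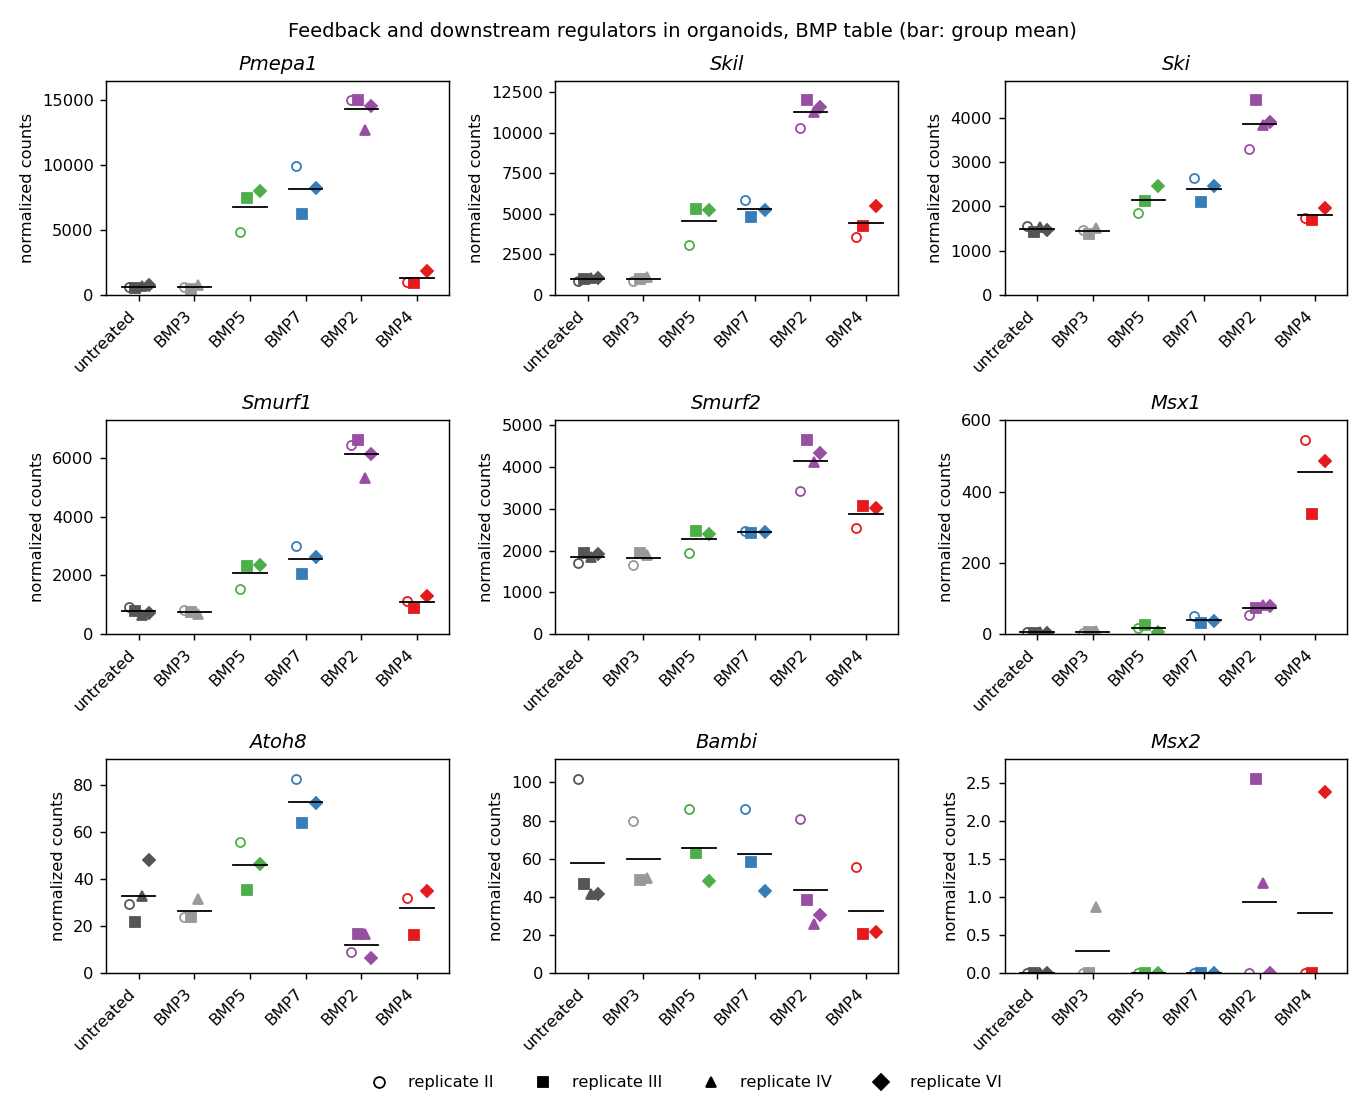
Normalized counts (linear axes from 0) of the 9 genes in the 20 samples of the BMP table, with 1 panel per gene, 1 point per sample, marker shape for the replicate number and a bar at each group mean. Pmepa1, Ski, Skil, Smurf1 and Smurf2 are highest with BMP2, Msx1 is highest with BMP4 at 337 to 546 normalized counts, and replicate II is the highest sample for Bambi in every group.

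Bambi (ENSMUSG00000024232), the pseudoreceptor, was low and did not pass the test against untreated organoids with any ligand. Its levels were 102, 46.5, 41.7 and 41.3 normalized counts in untreated organoids and 55.7, 20.5 and 21.5 with BMP4. With BMP2 they were 80.6, 38.4, 25.9 and 30.4 normalized counts. Replicate II was the highest sample in each of the 6 groups, and all groups overlapped. With BMP5 Bambi ranged from 48.4 to 86.1 normalized counts, and with BMP7 from 43.3 to 86.2. The log2 change for BMP4 against untreated organoids was -0.85 ± 0.42 (SE; adjusted p = 0.0850 by limma). Same-numbered samples deviated together in this comparison, and with the replicate number as a block the change was -0.97 (adjusted p = 0.000269 by limma). Leaving out BMP4 replicate II alone gave -1.31 (adjusted p = 0.0147), and leaving out untreated replicate II alone gave -0.55 (adjusted p = 0.265, both limma). Each of these split a pair. With all samples at the same total the BMP4 change was -1.24 (adjusted p = 0.0148). For BMP2 the change was -0.43 ± 0.39 (SE; adjusted p = 0.335 by limma). With the replicate number as a block it was also -0.43 (adjusted p = 0.0331 by limma), although the samples of replicate III did not deviate together there.

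Skil (ENSMUSG00000027660), a nuclear co-repressor of SMADs, rose with BMP2, BMP4, BMP5 and BMP7. It stood at 828, 988, 1070 and 1060 normalized counts in untreated organoids. With BMP2 it was at 10300, 12000, 11300 and 11600 normalized counts. With BMP4 the samples were at 3550, 4250 and 5480 normalized counts, with BMP5 at 3100, 5280 and 5230, and with BMP7 at 5860, 4830 and 5270. All treated samples of these 4 ligands lay above all untreated ones, all BMP2 samples lay above the rest, and BMP4, BMP5 and BMP7 overlapped one another. The ratio of group means to untreated organoids was 11.5 for BMP2, 4.49 for BMP4, 4.60 for BMP5 and 5.39 for BMP7. The log2 change was 3.52 ± 0.16 for BMP2 (adjusted p = 8.50e-13) and 2.15 ± 0.17 for BMP4 (adjusted p = 4.06e-09, both limma).

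Ski (ENSMUSG00000029050), the founding member of that co-repressor family, moved over a narrower range. Untreated samples were at 1560, 1410, 1530 and 1470 normalized counts, and BMP2 samples at 3300, 4390, 3840 and 3910. BMP4 samples were at 1730, 1680 and 1970 normalized counts, BMP5 samples at 1850, 2110 and 2450, and BMP7 samples at 2640, 2100 and 2460. None of these 4 groups overlapped the untreated samples, while BMP4 overlapped BMP5 and BMP5 overlapped BMP7. The log2 change was 1.36 ± 0.10 for BMP2 (adjusted p = 4.68e-10 by limma), 0.51 ± 0.11 for BMP5 (adjusted p = 0.00175) and 0.68 ± 0.11 for BMP7 (adjusted p = 9.41e-05). For BMP4 it was 0.26 ± 0.11 (adjusted p = 0.0408 by limma), and this call rested on the scaling and on single libraries. It was -0.14 with all samples at the same total (adjusted p = 0.217) and 0.17 by edgeR on recovered reads (adjusted p = 0.184), and it was not called in 9 of 17 alternatives, over which the adjusted p ran from 0.0229 to 0.989. Leaving out BMP4 replicate II or VI, or untreated replicate III, IV or VI, ended it, with adjusted p between 0.0526 and 0.174 by limma.

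Within a sample, the ratio of Skil to Ski does not depend on how samples are scaled. Its log2 mean ± SD was -0.60 ± 0.21 in the 4 untreated samples, 1.55 ± 0.08 in the 4 BMP2 samples and 1.28 ± 0.22 in the 3 BMP4 samples. The mean was -0.57 for BMP3, 1.05 for BMP5 and 1.15 for BMP7. The difference from untreated organoids was 2.16 for BMP2 and 1.89 for BMP4, and in both the groups did not overlap (exact two-sided permutation test, p = 0.0286, the smallest these group sizes allow, and 0.0367 after adjustment over 9 such tests). With a pseudocount of 0.1 in place of 1 these differences were 2.16 and 1.89 and their permutation p was still 0.0286, as it was for the Smurf ratios called below. The adjusted value became 0.0514, since the 9 tests include ratios of Msx2, which rest on at most 2 reads and whose own p rose. Over the 6 tests without Msx2, an alternative added after seeing the data, it was 0.0429 with either pseudocount. BMP4 and BMP2 differed by -0.27 in this ratio (exact permutation p = 0.0571, adjusted 0.0643), which did not pass the threshold.

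Smurf1 (ENSMUSG00000038780) and Smurf2 (ENSMUSG00000018363), paralogous ubiquitin ligases, answered the ligands differently, and the 250 bases in front of each start site are shown to let them be compared. They come from RefSeq on GRCm38.p6, whereas the submitters' processing notes name GRCm39, so the coordinates apply to the former build only. RefSeq entries matched 6 of the 9 genes. Smurf1 lies at chr5:144965831-144966080 and Smurf2 at chr11:106920716-106920965, both on the minus strand. Capitals mark matches on either strand to CAGAC, which holds the core of the SMAD-binding element, and to the palindrome GGCGCC, a GC-rich element described for BMP SMADs.
Smurf1: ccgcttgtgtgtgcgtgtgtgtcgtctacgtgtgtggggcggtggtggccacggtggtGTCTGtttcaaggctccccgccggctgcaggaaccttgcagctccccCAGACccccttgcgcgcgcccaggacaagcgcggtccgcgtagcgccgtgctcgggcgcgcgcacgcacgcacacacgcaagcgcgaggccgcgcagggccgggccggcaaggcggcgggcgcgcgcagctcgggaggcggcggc
Smurf2: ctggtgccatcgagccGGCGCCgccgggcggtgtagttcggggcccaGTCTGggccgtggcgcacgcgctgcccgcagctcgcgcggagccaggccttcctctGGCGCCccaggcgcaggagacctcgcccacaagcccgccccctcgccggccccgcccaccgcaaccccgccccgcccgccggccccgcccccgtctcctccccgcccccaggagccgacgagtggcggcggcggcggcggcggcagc
Smurf1 held 2 matches to CAGAC and none to GGCGCC, and Smurf2 held 1 match to CAGAC and 2 to GGCGCC. These 2 motifs do not overlap each other here. Among 32851 promoter windows of that length, 42.2% held CAGAC and 9.59% held GGCGCC, and the windows were GC-rich, at 74.8% for Smurf1 and 82.0% for Smurf2 against a median of 52.4%. The palindrome GTCTAGAC, held by 0.167% of windows, was not found in any of the 6. A match describes these letters only.

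Smurf1 rose most with BMP2. Its levels were 912, 775, 645 and 730 normalized counts in untreated organoids and 6420, 6620, 5320 and 6140 with BMP2. BMP4 samples were at 1120, 895 and 1280 normalized counts. BMP5 samples were at 1530, 2300 and 2360 normalized counts, and BMP7 samples at 2980, 2030 and 2620. All BMP2, BMP5 and BMP7 samples lay above all untreated ones, whereas BMP4 replicate III lay below untreated replicate II. The mean was 8.00-fold that of untreated organoids with BMP2, 2.70-fold with BMP5, 3.32-fold with BMP7 and 1.43-fold with BMP4. The log2 change was 3.00 ± 0.15 for BMP2 (adjusted p = 3.92e-12) and 0.52 ± 0.16 for BMP4 (adjusted p = 0.0103, both limma). The BMP4 value fell to 0.40 without BMP4 replicate VI (adjusted p = 0.0665) and to 0.12 with all samples at the same total (adjusted p = 0.495).

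Smurf2 samples with BMP4 lay above those with BMP5 and BMP7 on the authors' scaling, the reverse of the order seen for Smurf1, although the log2 difference turned sign with all samples at the same total. It stood at 1710, 1940, 1850 and 1920 normalized counts in untreated organoids, and at 3430, 4660, 4130 and 4330 with BMP2. BMP4 samples were at 2540, 3060 and 3020 normalized counts, BMP5 samples at 1930, 2470 and 2400, and BMP7 samples at 2460, 2430 and 2450. BMP2 and BMP4 samples lay above all untreated and all BMP5 and BMP7 samples, and BMP5 overlapped both the untreated and the BMP7 samples. The log2 change was 1.15 ± 0.10 for BMP2 (adjusted p = 4.98e-09), 0.63 ± 0.11 for BMP4 (adjusted p = 5.04e-05) and 0.40 ± 0.11 for BMP7 (adjusted p = 0.00813, all limma). At the same total the BMP2 value was 0.69 (adjusted p = 4.86e-06) and the BMP4 value 0.23 (adjusted p = 0.0718). For BMP5 it was 0.28 ± 0.11 (adjusted p = 0.0616 by limma), and 0.29 with the replicate number as a block (adjusted p = 0.00402), where same-numbered samples deviated together. Without BMP5 replicate II it was 0.39 (adjusted p = 0.0129).

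The ratio of Smurf2 to Smurf1 within a sample divided the ligands. Its log2 mean ± SD was 1.29 ± 0.27 in the 4 untreated samples, 1.40 ± 0.33 in the 3 BMP4 samples and -0.57 ± 0.23 in the 4 BMP2 samples. The mean was 1.28 for BMP3, 0.15 for BMP5 and -0.04 for BMP7. BMP4 exceeded BMP2 by 1.97 and BMP2 was below untreated organoids by a difference of -1.86, both without overlap (exact permutation p = 0.0286, adjusted 0.0367). BMP4 and untreated organoids differed by 0.11 (exact permutation p = 0.629).

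**Figure D2:**
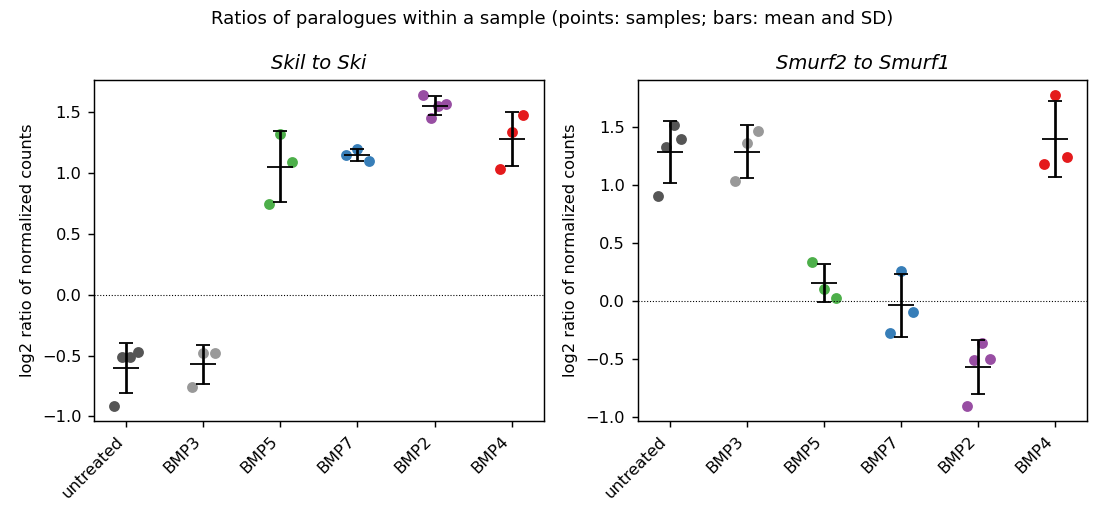
Log2 ratio of normalized counts within each sample of the BMP table, for Skil to Ski and for Smurf2 to Smurf1, with 1 point per sample and bars at the group mean and SD. The Skil to Ski ratio is below 0 in untreated and BMP3 samples and above 0 with BMP2, BMP4, BMP5 and BMP7, whereas the Smurf2 to Smurf1 ratio with BMP4, at 1.40 on average, sits beside that of untreated organoids at 1.29.

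Msx1 (ENSMUSG00000048450) and Msx2 (ENSMUSG00000021469), homeobox paralogues, differed in that Msx1 rose with BMP4 from a few reads while Msx2 was hardly detected in any organoid, and their upstream windows are shown for that contrast. Msx1 lies at chr5:37824586-37824835 and Msx2 at chr13:53472781-53473030, both on the minus strand of GRCm38.p6 in RefSeq. Neither window held any of these 3 motifs on either strand, so no letters are in capitals.
Msx1: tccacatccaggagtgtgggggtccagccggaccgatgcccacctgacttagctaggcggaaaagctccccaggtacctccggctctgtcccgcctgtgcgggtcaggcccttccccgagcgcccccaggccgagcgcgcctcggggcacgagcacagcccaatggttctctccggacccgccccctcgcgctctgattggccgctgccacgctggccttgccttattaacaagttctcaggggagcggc
Msx2: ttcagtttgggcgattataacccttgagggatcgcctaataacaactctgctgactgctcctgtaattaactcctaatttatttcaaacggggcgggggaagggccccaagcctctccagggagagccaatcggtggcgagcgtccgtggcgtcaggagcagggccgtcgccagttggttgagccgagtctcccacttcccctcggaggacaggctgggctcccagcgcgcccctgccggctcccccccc
Their GC content was 68.0% for Msx1 and 61.6% for Msx2.

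Msx1 was the gene of this group that rose most with BMP4. Its levels were 6.22, 4.15, 5.32 and 3.30 normalized counts in untreated organoids, from 4 to 7 reads per sample. With BMP4 they were 546, 337 and 485 normalized counts. With BMP2 the samples were at 54.5, 74.2, 82.3 and 78.5 normalized counts, with BMP7 at 50.8, 30.1 and 36.6, and with BMP5 at 17.0, 25.9 and 5.47. Every BMP4 sample lay above every other sample, every BMP2 sample lay above every BMP7 sample, and 1 BMP5 sample fell within the untreated range. The mean with BMP4 was 96.1-fold that of untreated organoids, against 15.2-fold with BMP2, 8.25-fold with BMP7 and 3.40-fold with BMP5, on untreated levels of a few reads. The log2 change was 6.31 ± 0.39 for BMP4 (adjusted p = 2.84e-10), 3.68 ± 0.36 for BMP2 (adjusted p = 2.89e-08) and 2.80 ± 0.39 for BMP7 (adjusted p = 2.53e-05, all limma). For BMP5 it was 1.38 ± 0.39 (adjusted p = 0.0142 by limma), and 0.94 without BMP5 replicate III (adjusted p = 0.123). With only the BMP5 and untreated samples in the fit, the adjusted p was 0.0791. Msx1 also passed the filter on low values without its BMP4 samples, at a mean of 28.9 normalized counts over the others.

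Msx2 stayed at or under 2 reads in every organoid sample of the BMP table and was not tested. It had 2 reads in BMP2 replicate III and in BMP4 replicate VI, 1 read in BMP2 replicate IV and in BMP3 replicate IV, and no read in the other samples. All samples were thus at or under the floor of 3 reads, which covers counting error only, and no fold is given.

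Atoh8 (ENSMUSG00000037621) was low in all organoids and moved in opposite directions with BMP2 and BMP7. It stood at 29.3, 21.6, 32.8 and 47.9 normalized counts in untreated organoids and at 9.08, 16.6, 16.5 and 6.33 with BMP2. With BMP7 it was at 82.6, 63.8 and 72.2 normalized counts, with BMP5 at 55.6, 35.2 and 46.5, and with BMP4 at 32.0, 16.0 and 34.7. BMP2 samples lay below and BMP7 samples above all untreated ones, and BMP4 and BMP5 overlapped them. The log2 change was -1.41 ± 0.32 for BMP2 (adjusted p = 0.000532 by limma) and 1.17 ± 0.34 for BMP7 (adjusted p = 0.0132). The BMP7 value was 1.08 without BMP7 replicate II (adjusted p = 0.0583). For BMP4 it was -0.26 ± 0.34 (adjusted p = 0.516) and for BMP5 0.50 ± 0.34 (adjusted p = 0.315, all limma).

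Counted over the 8 genes tested, BMP2 changed 7, with 6 higher and 1 lower, where 75.1% of all 14746 genes tested were called, 36.8% higher and 38.4% lower. BMP4 changed 6, all higher, where 65.1% of all genes were called and 33.7% were higher. BMP5 changed 5, all higher, against 26.3% of all genes called, 16.5% higher and 9.87% lower. BMP7 changed 7, all higher, against 32.4% called and 19.2% higher. With the replicate number as a block, 8 were called for BMP2, 7 for BMP4, 6 for BMP5 and 7 for BMP7. Bambi was then called lower with BMP2 and with BMP4. Of all 14746 genes, 11858, 10582, 5738 and 6689 were called with that block. Because most genes were called with BMP2 and with BMP4, the number called says little there, and the sizes carry the description. With all samples at the same total, BMP4 had 3 of the 8 higher and 1, Bambi, lower, where 21% of all genes were higher and 46.5% lower, while the members' counts for BMP2, BMP5 and BMP7 stayed at 6 higher and 1 lower, 5 higher and 7 higher. For BMP2 that scaling called 24.6% of all genes higher and 52.8% lower, for BMP5 16% and 12.8%, and for BMP7 17.5% and 18.5%. After quantile normalization BMP5 had 16.5% of all genes higher and 15.7% lower, and BMP7 18.5% and 18.8%. The median log2 change of the 8 genes was 2.18 for BMP2, 0.57 for BMP4, 0.94 for BMP5 and 1.45 for BMP7, where the median of all genes lay between -0.05 and 0.04. With BMP3 none of the 8 passed by limma, edgeR or DESeq2, none had an unadjusted p under 0.05 by limma, and 0% of all genes were called. At an unadjusted p under 0.05 limma gave 110 of 14746 genes for BMP3, and DESeq2 called 1 gene and edgeR 0 after adjustment. These 110 were fewer than that threshold gives without any effect. That fit left out the pairing of same-numbered samples, which correlated at 0.281 to 0.553 here. With the replicate number as a block, 0 genes were called for BMP3 after adjustment. With BMP3, Skil was at 870 to 1090 normalized counts, Ski at 1370 to 1520, Smurf1 at 683 to 808, Smurf2 at 1650 to 1930, Msx1 at 3.56 to 8.75, Atoh8 at 23.7 to 31.5 and Bambi at 49.0 to 80.0, each overlapping the untreated range. All of these comparisons use the same 4 untreated samples.

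**Figure D3:**
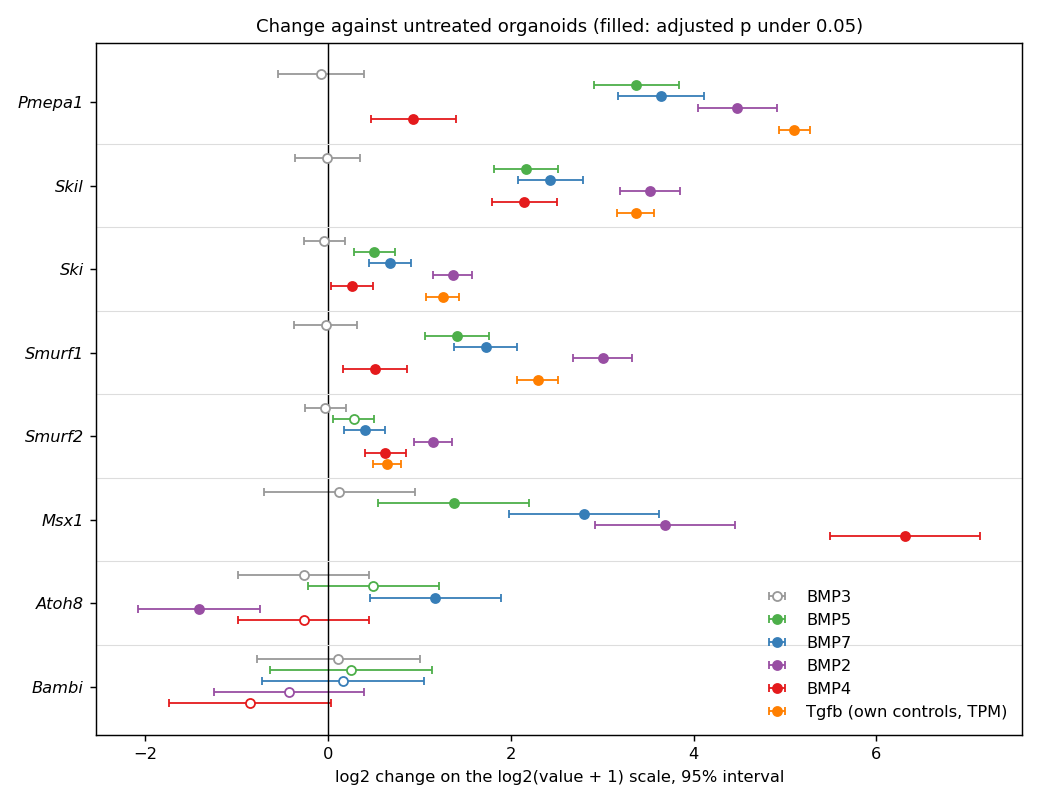
Log2 change against untreated organoids on the log2(value + 1) scale (horizontal axis) with its 95% interval from limma, for 8 genes (rows) and 6 ligands (colours). Filled points passed an adjusted p of 0.05, and Tgfb was measured against its own untreated samples in TPM. Msx1 with BMP4 lies at 6.31 and Pmepa1 with BMP4 at 0.94, and every BMP3 point is open and lies near 0.

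Tested directly, BMP4 differed from BMP2 in 7 of the 8 genes, 2 higher and 5 lower, where 66.8% of all genes tested were called, 33.4% in each direction. Msx1 was 6.30-fold higher on average with BMP4 than with BMP2 (log2 difference 2.63 ± 0.39, adjusted p = 9.44e-06). Atoh8 was also higher with BMP4 (1.14 ± 0.34, adjusted p = 0.00639), although 1 BMP4 sample, at 16.0 normalized counts, lay among the BMP2 samples. The membrane inhibitor Pmepa1 was 11.2-fold lower with BMP4 (log2 difference -3.54 ± 0.22, adjusted p = 1.13e-10). The other 4 that were lower with BMP4 were Smurf1 at -2.49 ± 0.16 (adjusted p = 2.28e-10), Skil at -1.37 ± 0.17 (8.14e-07), Ski at -1.10 ± 0.11 (4.53e-08) and Smurf2 at -0.52 ± 0.11 (0.000314, all limma). None of these 4, nor Pmepa1, overlapped between the ligands, and the share of all genes without overlap is not given here. Bambi gave -0.43 ± 0.42 with a 95% interval from -1.32 to 0.46 (adjusted p = 0.387). With the replicate number as a block it gave -0.55 (adjusted p = 0.0177, both limma), although the samples of replicate III did not deviate together here.

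BMP4 and BMP5 differed in 5 of the 8 genes, 2 higher and 3 lower with BMP4, where 60.1% of all genes were called, 28.4% higher and 31.7% lower. At the same total the split was 1 higher and 5 lower, where 17.7% of all genes were higher and 47% lower. Msx1 was 28.3-fold higher with BMP4 (log2 difference 4.94 ± 0.42, adjusted p = 1.46e-08), and Pmepa1 was 5.30-fold lower (-2.44 ± 0.24, adjusted p = 8.13e-08). Smurf1 was lower with BMP4 by a log2 difference of -0.90 ± 0.18 (adjusted p = 0.000235). Smurf2 was higher by 0.35 ± 0.12 (adjusted p = 0.0147), a call that other scaling ended, at -0.015 with all samples at the same total and 0.06 after quantile normalization. That call was also lost without BMP4 replicate III, BMP4 replicate VI or BMP5 replicate II, with adjusted p between 0.0516 and 0.101. Bambi was lower with BMP4 by -1.11 ± 0.45 (adjusted p = 0.0416), with overlapping samples. Each BMP4 sample lay below the BMP5 sample of the same number, and with the replicate block, which fits the pairing found here, the change was also -1.11 (adjusted p = 0.00013 by limma), the lowest of 16 alternatives. The call was lost in 9 of these, with adjusted p up to 0.156. Leaving out BMP4 replicate III or VI, or BMP5 replicate II or III, was enough to lose it. Skil showed no difference that passed (-0.02 ± 0.18, 95% interval -0.39 to 0.36, adjusted p = 0.945 by limma). Ski gave -0.25 ± 0.12 (adjusted p = 0.0740), but -0.61 at the same total (adjusted p = 4.71e-05) and -0.35 by edgeR (adjusted p = 0.0127), and it passed without BMP4 replicate VI (-0.32, adjusted p = 0.0404) or BMP5 replicate II (-0.35, adjusted p = 0.0213). Atoh8 gave -0.76 ± 0.36 (adjusted p = 0.0805), but -1.11 at the same total (adjusted p = 0.0127) and -0.83 by edgeR on recovered reads (adjusted p = 0.0455).

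BMP4 and BMP7 differed in 5 of the 8 genes, 1 higher and 4 lower with BMP4, where 59.8% of all genes were called, 28.4% higher and 31.4% lower. At the same total it was 1 higher and 6 lower, where 18.1% of all genes were higher and 45% lower. With the replicate number as a block, 7 of the 8 were called, where 9976 of all 14746 genes were. Msx1 was 11.6-fold higher with BMP4 (log2 difference 3.51 ± 0.42, adjusted p = 1.01e-06). Pmepa1 was 6.35-fold lower (-2.71 ± 0.24, adjusted p = 2.57e-08), Atoh8 2.64-fold lower (-1.44 ± 0.36, adjusted p = 0.00233) and Smurf1 2.32-fold lower (-1.21 ± 0.18, adjusted p = 1.03e-05). Ski was lower by a log2 difference of -0.42 ± 0.12 (adjusted p = 0.00449), and -0.75 at the same total (adjusted p = 4.85e-06). Skil gave -0.28 ± 0.18 with a 95% interval from -0.66 to 0.09 (adjusted p = 0.184 by limma), -0.61 at the same total (adjusted p = 0.00551) and -0.45 without BMP4 replicate VI (adjusted p = 0.0469). Smurf2 gave 0.23 ± 0.12 (adjusted p = 0.0995), 0.23 with the replicate block (adjusted p = 0.0110), 0.31 without BMP4 replicate II (adjusted p = 0.0415) and -0.10 at the same total (adjusted p = 0.459). Bambi gave -1.02 ± 0.45 (adjusted p = 0.0598) and, with the replicate block, -1.02 (adjusted p = 0.000287 by limma). It passed without BMP4 replicate II (-1.48, adjusted p = 0.0112), without BMP7 replicate VI (-1.25, adjusted p = 0.0423) and at the same total (-1.34, adjusted p = 0.0153). Same-numbered samples deviated together in this comparison too.

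**Figure D4:**
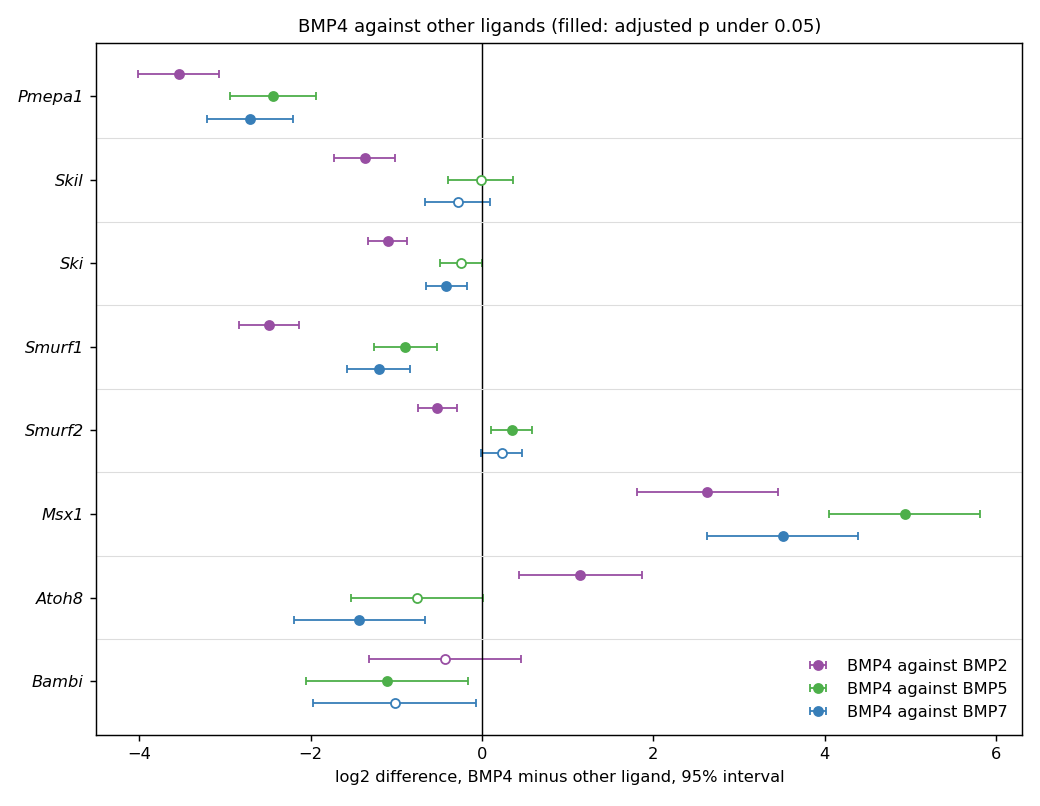
Log2 difference of BMP4 minus BMP2, BMP5 or BMP7 (horizontal axis) with its 95% interval from limma, for 8 genes (rows). Filled points passed an adjusted p of 0.05. Msx1 lies to the right of 0 for all 3 ligands, at 2.63 to 4.94, and Pmepa1 and Smurf1 lie to the left for all 3.

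Tgfb raised all 5 of the 9 genes that were high enough to be tested in its table, where 56.7% of all 12959 genes tested were called and 27.4% were higher. Pmepa1 stood at 6.52, 5.66 and 6.28 TPM in untreated organoids and at 239, 250 and 243 TPM with Tgfb, a 39.7-fold difference of means (log2 change 5.10 ± 0.07, adjusted p = 1.30e-06). Skil stood at 6.84, 7.07 and 8.36 TPM untreated and at 87.5, 83.8 and 85.8 TPM with Tgfb (3.37 ± 0.08, adjusted p = 2.99e-06). Smurf1 went from 7.48, 8.81 and 7.70 TPM to 41.5, 40.8 and 47.1 TPM (2.29 ± 0.09, adjusted p = 1.01e-05). None of these groups overlapped, nor did those of Ski and Smurf2 below, and the share of all genes without overlap is not given here. Ski stood at 15.4, 16.2 and 15.6 TPM untreated and at 39.2, 36.1 and 41.9 TPM with Tgfb (1.26 ± 0.07, adjusted p = 3.81e-05). Smurf2 stood at 23.1, 23.4 and 25.2 TPM untreated and at 37.9, 36.9 and 39.1 TPM with Tgfb (0.65 ± 0.06, adjusted p = 0.000286 by limma). TPM is per length, so here genes can be set side by side. Among these 5, untreated organoids had the highest level of Smurf2 and then Ski, while Smurf1 and Skil overlapped and Pmepa1 was lowest. After Tgfb the order was Pmepa1, Skil and then Smurf1, with Ski overlapping Smurf1 and Smurf2. The epithelial marker sum was 2309 to 2525 TPM in these untreated samples and 8514 to 11386 TPM with Tgfb, and the immune marker sum 0.985 to 1.22 and 2.84 to 3.22 TPM. The part of both in these results was not tested.

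The other 4 genes were under the mean of 1 TPM set for testing. Msx2 was listed at 0 in all 6 samples. Msx1 was at 0.0472 to 0.161 TPM untreated and 0.122 to 0.247 TPM with Tgfb, and Bambi at 0.441 to 0.550 and 0.556 to 0.810 TPM. Atoh8 stood at 0.854, 1.09 and 1.19 TPM untreated and 0.374, 0.339 and 0.749 TPM with Tgfb, without overlap. With the filter lowered to 0.1 TPM, Atoh8 passed the test (log2 change -0.47 ± 0.14, adjusted p = 0.0393 by limma), and Bambi (0.18, adjusted p = 0.204) and Msx1 (0.13, adjusted p = 0.279) did not.

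BMP4 and Tgfb stand in tables normalized separately and with different controls, so their changes are given side by side without a test. The log2 changes for BMP4 and for Tgfb were 0.94 and 5.10 in Pmepa1, 2.15 and 3.37 in Skil, 0.26 and 1.26 in Ski, 0.52 and 2.29 in Smurf1, and 0.63 and 0.65 in Smurf2. For BMP2 the same 5 genes gave 4.48, 3.52, 1.36, 3.00 and 1.15.

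In the mesenchymal cells, which are the intestinal cells that surround the epithelium, 7 of the 9 genes were above a mean of 1 TPM. Summed mesenchymal markers were at 22678 TPM in the fresh and 13048 TPM in the immortalised sample, and epithelial markers at 28.8 and 0.118 TPM. Pmepa1 was at 99.8 TPM in the fresh and 55.5 TPM in the immortalised sample, Smurf2 at 53.4 and 66.2 TPM, Ski at 51.9 and 61.5 TPM, Skil at 29.7 and 26.1 TPM, and Smurf1 at 25.5 and 45.7 TPM. Atoh8, near 1 TPM in untreated organoids, was at 25.5 and 16.6 TPM. Bambi was at 2.80 and 2.75 TPM, Msx1 at 1.14 and 0.0611 TPM, and Msx2 at 0.267 and 0.865 TPM. None of the 7 genes differed 2-fold or more between the 2 samples on the log2(TPM + 1) scale, where 17% of 13652 genes did, 6.26% higher and 10.7% lower in the immortalised sample. There was no replicate, so no test was made, and the table was normalized apart from the organoid ones.

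**Figure D5:**
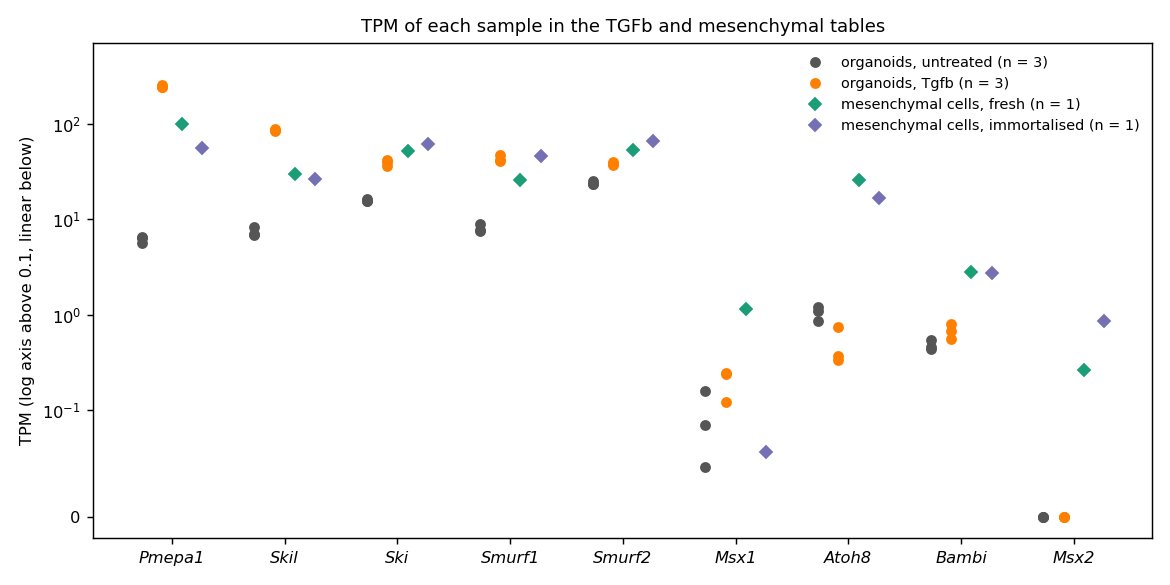
TPM of the 9 genes in each sample of the TGFb and mesenchymal tables (vertical axis logarithmic above 0.1 TPM and linear below). Points are untreated organoids, Tgfb-treated organoids and the 2 single mesenchymal samples. Pmepa1 lies near 6 TPM in untreated organoids and at 239 to 250 TPM with Tgfb, and Atoh8 lies highest in the mesenchymal samples.

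Other genes of the pathway were taken from lists that hold none of the 9. The lists were chosen with earlier results of these data known, so their counts and medians only describe these data. Of 20 known BMP targets, 14 were tested in the BMP table, and 2 of these, Hey1 and Gata2, passed the filter on low values only through BMP2 and are left out of the counts. Of the other 12, BMP4 raised 9 and lowered 1 (median log2 change 3.65, against 0.04 for all genes), BMP2 raised 10 and lowered 1 (3.01), BMP7 raised 10 (2.22) and BMP5 raised 7 (1.21). Over all genes the shares higher and lower, which also stand behind the counts in the next paragraphs, were 33.7% and 31.4% for BMP4, 36.8% and 38.4% for BMP2, 19.2% and 13.2% for BMP7, and 16.5% and 9.87% for BMP5. Id3 and Id1, which block basic helix-loop-helix factors, and the inhibitory SMAD gene Smad6 rose most with BMP4, by log2 changes of 6.41, 4.30 and 5.58 (adjusted p = 5.59e-10, 5.88e-12 and 3.08e-09 by limma). Hes1, a Notch target, fell by 1.08 (adjusted p = 0.0114). Against BMP2, BMP4 had 6 of the 12 higher and 3 lower, where 33.4% of all genes were called in each direction. Smad6 was higher with BMP4 by 1.71 (adjusted p = 0.00170), while Smad7, the inhibitory SMAD shared by both branches, was lower by a log2 difference of -1.03 (adjusted p = 0.00167). With Tgfb, 8 were tested and Smad6 passed the filter only through the Tgfb samples. Of the other 7, 4 rose, among them Smad7 by 3.49 (adjusted p = 1.84e-05), where 27.4% of all genes were higher and 29.3% lower.

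Of 30 genes for SMAD turnover and for co-regulators other than the 9, 27 were tested. BMP4 raised 13 and lowered 7 of these (median 0.25), BMP2 raised 16 and lowered 6 (0.48), BMP5 raised 5 and lowered 1 (0.08), BMP7 raised 7 and lowered 2 (0.18), and Tgfb raised 11 and lowered 5 (0.19). The genes lowered with BMP4 and BMP2, 7 and 6 of 27, did not exceed the share of all genes lowered. The split moved with the scaling as all genes did. At the same total BMP4 raised 8 and lowered 12 (median -0.14, against -0.35 for all genes) and BMP2 raised 11 and lowered 11 (0.02, against -0.48), and after quantile normalization BMP5 and BMP7 each raised 5 and lowered 4. Tob1, an antiproliferative protein that binds SMADs, rose with BMP4 from 1880 ± 347 (SD, n = 4) to 8860 ± 1681 normalized counts (SD, n = 3), a log2 change of 2.24 (adjusted p = 4.23e-08 by limma). The ubiquitin ligase Itch rose by 1.21 (adjusted p = 2.48e-10) and the SMAD phosphatase Ppm1a by 1.04 (adjusted p = 2.55e-08). The co-repressor Tgif1 fell with BMP4 by 1.12 (adjusted p = 2.06e-07), whereas it rose with BMP2 by 2.45 (adjusted p = 1.18e-12), and the difference of BMP4 minus BMP2 was -3.57 (adjusted p = 1.06e-13). Ldlrad4, a membrane relative of Pmepa1 that also restrains SMAD2 and SMAD3, had a mean ± SD of 21.2 ± 6.31 normalized counts in the 3 BMP4 samples, 661.5 ± 20.8 in the 4 BMP2 samples and 62.3 ± 15.0 in the 4 untreated samples. Its difference of BMP4 minus BMP2 was -4.94 (adjusted p = 8.52e-13), and it rose with Tgfb by 2.83 (adjusted p = 1.28e-05, both limma). Tgif2, a relative of Tgif1, went the other way, higher with BMP4 than with BMP2 by 3.43 (adjusted p = 5.49e-08).

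Of 20 genes known as Tgfb targets, 15 were tested in the BMP table and 14 in the TGFb table. Of the 14 genes tested in the TGFb table, 4 passed the filter only through the group where they were highest. Tgfb raised all of the other 10 (median 2.80, against -0.04 for all genes). Among the 4 was Tgfbi, an extracellular matrix protein named for its induction by Tgfb. It was highest in untreated organoids, at a mean of 3.17 TPM against 0.449 TPM with Tgfb. BMP2 raised 13 and lowered 2 (3.20), BMP5 raised 14 and lowered 1 (1.80) and BMP7 raised 13 and lowered 1 (1.84). BMP4 raised 5 and lowered 4 (median -0.13), close to its shares over all genes, or 4 and 6 at the same total (-0.51, against -0.35 for all genes), where 21% of all genes were higher and 46.5% lower. Against BMP2, BMP4 had 1 higher and 12 lower (median -3.02), against BMP5 3 higher and 11 lower (-1.70) and against BMP7 3 higher and 11 lower (-1.85). Over all genes 33.4%, 31.7% and 31.4% were lower in these comparisons. Thrombospondin Thbs1 had a mean ± SD of 158 ± 88.4 normalized counts in the 3 BMP4 samples, 761.5 ± 604 in the 4 untreated samples and 15175 ± 1826 in the 4 BMP2 samples. Tgfbi was the exception in the BMP2 comparison. It was at 282 ± 54.8 normalized counts in the 3 BMP4 samples and 7.82 ± 1.84 in the 4 BMP2 samples (mean ± SD). The log2 difference was 5.01 (adjusted p = 1.89e-11 by limma).

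Across the 20 samples of the BMP table, Pearson's r on log2 values between Pmepa1, Skil, Ski and Smurf1 ran from 0.906 for Skil with Ski to 0.978 for Ski with Smurf1. Smurf2 stood at 0.902 with Skil, 0.888 with Ski, 0.834 with Smurf1 and 0.729 with Pmepa1. Msx1 stood at 0.697 with Smurf2, 0.694 with Skil, 0.448 with Ski, 0.413 with Smurf1 and 0.376 with Pmepa1, and Atoh8 and Bambi had r below 0 with Smurf2, at -0.539 and -0.530. Among 11849 genes searched, those most like Msx1 were Tbx3os2 (r = 0.978) and Tbx3 (0.972), a T-box factor gene and a transcript annotated as its opposite-strand neighbour, whose reads may not be told apart without strand. Among the genes most like the others were Vill (0.992) for Pmepa1, Myo1c and Rtn4 (both 0.994) for Smurf1, Gch1 (0.989) and Ctnnd1 (0.988) for Skil, Tirap (0.990) for Ski, and Scyl2 (0.987) and Fbrs (0.986) for Smurf2. Bambi was most like Armcx5 (0.913) and N6amt1 (0.904), and Atoh8 most like Prdx6 (0.820) and Bdh1 (0.811). All samples share the treatment groups and the scaling, so these values describe the pattern over groups only.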

How the data were processed

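The members and gene lists were chosen with earlier results of these data known, and the rule for other named genes took the largest changes per list among genes past the threshold. Per the submitters' processing notes, Trim Galore, Salmon, DESeq2 and GRCm39 were used, with no role or version given here. The authors deposited the BMP table as a signal: read counts per gene over a size factor for each sample. Of 180721 low values, up to 20 reads, 100% were whole reads within 0.1 read. The TGFb and mesenchymal tables were deposited as TPM by the authors, scaled to a common total. Per the labels' protocols, libraries were 75 nt single-end NextSeq 500 reads from 2 runs, which are not assigned to samples, so run and group cannot be told apart.

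Values were taken as log2(value + 1). The test was limma 3.58.1 in R 4.3.3 with an intensity trend, 1 fit over all 6 groups of the BMP table (14746 of 29413 genes, mean of at least 10) and 1 over the TGFb table (12959 of 55416 genes, mean of at least 1 TPM). The lower TPM minimum, the block on replicate number, other scalings, edgeR 4.0.16 and DESeq2 1.42.0 on recovered reads, and leaving out each sample were alternatives. Ratios of paralogues used exact permutation tests. Motifs were searched on both strands of RefSeq promoter windows. Replicate numbers were checked by correlating deviations from group means: same-numbered samples correlated at 0.158 to 0.553 for BMP3, BMP4, BMP5 and BMP7 against untreated organoids and for BMP4 against BMP5 and BMP7, so there the numbers paired the samples, and blocked values stand beside the results they change. No replicate pair of the BMP table agreed within sampling noise, and in the TGFb table, where depth is unknown, columns were only checked for identity.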

Additional observations from a re-analysis of the deposited data

Results flagged for a closer look

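Bambi in untreated organoids had 1 sample far from the other 3. Replicate II stood at 102 normalized counts and the others at 41.3 to 46.5. The gap was 0.914 of the whole range, above Dixon's 95% critical value for 4 samples. The test was made on 17 groups of 4 samples, and chance alone passes about 1 in 20. Replicate II was also the highest Bambi sample in each ligand group. Without that untreated sample, but with BMP4 replicate II at 55.7 normalized counts kept, the log2 change of Bambi for BMP4 against untreated organoids was -0.55 (adjusted p = 0.265 by limma). Same-numbered samples deviated together in this comparison, so leaving out 1 of them splits a pair. With all samples and the replicate number as a block the change was -0.97 (adjusted p = 0.000269 by limma).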

How the results depend on the processing

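Of 61 changes of single genes, 47 were called, and 40 of these kept direction and call under every alternative run. Of the 14 not called, only 2 kept direction and stayed uncalled under every alternative. Over 1002 alternative values, 939 kept direction and call, 29 lost a call without turning sign, 24 gained a call, and 10 turned sign. Among those that turned sign, Ski for BMP4 against untreated organoids and Smurf2 for BMP4 against BMP5 also lost their call. With all samples at the same total, Ski for BMP4 against untreated organoids was -0.14, and Smurf2 was -0.015 for BMP4 against BMP5 and -0.10 against BMP7 (-3.72e-04 after quantile normalization). Leaving out 1 replicate at a time gave -0.46 to 0.074 for Atoh8 with BMP4, -0.089 to 0.47 for Bambi with BMP7 and -0.27 to 0.13 for Skil in BMP4 against BMP5, none of them called. The numbers shared by BMP2 and untreated samples, and by BMP4 and BMP2, paired them in part. For BMP2 and untreated samples same-number r was 0.195 (II), 0.0182 (III), 0.421 (IV) and 0.308 (VI), with other numbers at most at 0.133. For BMP4 and BMP2 it was 0.272 (II), -0.0400 (III) and 0.298 (VI), with other numbers at most at 0.162. The numbers of the Tgfb table did not pair the samples (0.00405 to 0.0696). A replicate block gave -0.43 for Bambi with BMP2 (adjusted p = 0.0331) and -0.55 for BMP4 against BMP2 (adjusted p = 0.0177 by limma). Beside the blocked values in the report it changed no other call of a single gene. Without 1 replicate, BMP3 gave 0 to 1 called genes and BMP5 2515 (without BMP5 replicate III; 2532 without VI) to 4298, and BMP4 against BMP5 gave 3 (without BMP4 replicate III) to 5 called members. With only the groups compared, BMP3 gave 3 called genes and BMP4 against BMP5 3 members; DESeq2 gave 1 gene for BMP3. The filter at a mean of 50 left Atoh8 untested.

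At a pseudocount of 0.1 the log2 ratio differences were 2.16 and 1.89 for Skil to Ski (BMP2, then BMP4, against untreated organoids), 1.97 and -1.86 for Smurf2 to Smurf1 (BMP4 against BMP2, then BMP2 against untreated) and -3.20, -1.82 and -5.02 for Msx2 to Msx1 (BMP4 against BMP2, BMP2 and BMP4 against untreated), none of them called any more (adjusted p 0.0514 to 0.321). With Msx2 at or under 2 reads, its ratios depend on the pseudocount and show nothing beyond the level of Msx1. With them left out of the adjustment, an alternative added after seeing the data, the Skil and Smurf calls held at both pseudocounts (adjusted p = 0.0429, exact permutation test). Without 1 replicate these ranged, in that order, from 2.05 to 2.20, 1.78 to 2.01, 1.78 to 2.07, -1.98 to -1.74, -3.31 to -2.34, -3.29 to -2.66 and -6.25 to -5.29, and Smurf2 to Smurf1 for BMP4 against untreated from -0.076 to 0.22. With 1 sample fewer none of these passed after adjustment. In the comparisons with BMP4 the groups are then too small to reach 0.05. For BMP2 against untreated organoids, 3 against 4 samples still allow a p of 0.0286 by the exact permutation test. There the adjusted p was 0.0514, because p rose in other tests of the 9. The lost calls therefore say nothing about stability. Depth limits Msx2 and the untreated level of Msx1.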
